A study of Mus musculus with 5 samples.

Results

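The caudal-type homeobox genes Cdx1, Cdx2 and Cdx4 were followed through single-cell transcriptomes of differentiating mouse epiblast stem cells (EpiSCs). These 3 genes were taken by symbol from the 32285 features of the expression matrices. The EpiSCs, 1 wild-type line derived from a post-implantation mouse embryo, spent 3 days differentiating in N2B27 with 1 µM of the Wnt agonist CHIR99201 (Chi) and 8 ng/ml BMP. FGF2 was added at 0, 0.75, 3 or 12 ng/ml, and a further culture received 30 nM of the FGF receptor inhibitor AZD4547 (FGFRi), for which no FGF2 dose is stated. Chi and BMP were thus present in every culture, and undifferentiated cells were not among the samples. Each condition was 1 library, so every value below describes that library, variation from culture to culture was not measured, and no p-values are given. Intervals are 95% intervals and cover counting error only.

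Cells with at least 2500 genes and at most 10% mitochondrial counts were retained, which left 1701 cells for FGFRi and 1696, 2725, 2125 and 2406 cells for 0, 0.75, 3 and 12 ng/ml FGF2. Levels are given as unique molecular identifiers (UMIs) of a gene relative to all UMIs of the library or class of cells, on the usual CPM scale of counts relative to a fixed total, from totals of 47824660 to 81538748 UMIs per library. The pluripotency genes Pou5f1 and Nanog, which mark undifferentiated EpiSCs, were low after 3 days, at 1.74 to 11.3 CPM and 0.460 to 2.03 CPM across the libraries. Between 0 and 2 retained cell barcodes were shared by any pair of libraries.

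Cdx proteins are homeodomain transcription factors of the posterior embryo. In the mouse they are active in the primitive streak, the caudal epiblast and the tail bud, where they act downstream of Wnt and FGF signals, switch on Hox genes of the trunk and keep axial progenitors, including the neuromesodermal progenitors, in place as the body elongates. Cdx2 has a separate early role in the trophectoderm, the first extraembryonic lineage, and is found later in the extraembryonic ectoderm, the allantois and the hindgut. Cdx1 and Cdx4 share much of the posterior role of Cdx2, and the genes can partly replace one another.

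The genes lie on 3 chromosomes and each has 3 exons in the GENCODE vM21 annotation of GRCm38. Cdx2 (ENSMUSG00000029646) spans chromosome 5 from 147300805 to 147307270 on the minus strand. Cdx4 (ENSMUSG00000031326) spans chromosome X from 103321398 to 103330592 on the plus strand. No other annotated gene overlaps any of them, and each has an annotated 3′ untranslated end, where this 3′ assay counts molecules. The bases just upstream of Cdx2 and Cdx4 are shown because the 2 genes differed so widely in level. Those of Hoxb8 are shown because its profile over the 5 libraries, centred on its own mean, was the closest to that of Cdx2. With the FGFRi library left out, Hoxb8 was not among the 5 nearest genes. The bases are from RefSeq on GRCm38.p6, read 5′ to 3′ on the strand of each gene, and stop before the first annotated base of the gene. They cover chr5:147307271-147307499 on the minus strand for Cdx2, chrX:103321148-103321397 on the plus strand for Cdx4 and chr11:96281655-96281904 on the plus strand for Hoxb8. Capitals mark the octamer ATGCAAAT in Cdx2 and Cdx4, which is bound by POU factors, the core CTTTG of TCF/LEF sites in Cdx4, and the caudal core TTTAT in Hoxb8, on either strand.
Cdx2: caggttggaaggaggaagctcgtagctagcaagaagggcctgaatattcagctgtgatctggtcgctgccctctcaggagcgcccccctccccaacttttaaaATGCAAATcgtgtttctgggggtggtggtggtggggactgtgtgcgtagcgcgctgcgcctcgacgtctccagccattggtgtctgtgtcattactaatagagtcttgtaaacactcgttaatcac
Cdx4: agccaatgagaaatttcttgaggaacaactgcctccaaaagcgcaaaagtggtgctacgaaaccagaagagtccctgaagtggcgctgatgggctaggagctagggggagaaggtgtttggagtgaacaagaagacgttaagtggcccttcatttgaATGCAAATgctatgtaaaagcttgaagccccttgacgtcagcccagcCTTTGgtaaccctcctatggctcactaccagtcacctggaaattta
Hoxb8: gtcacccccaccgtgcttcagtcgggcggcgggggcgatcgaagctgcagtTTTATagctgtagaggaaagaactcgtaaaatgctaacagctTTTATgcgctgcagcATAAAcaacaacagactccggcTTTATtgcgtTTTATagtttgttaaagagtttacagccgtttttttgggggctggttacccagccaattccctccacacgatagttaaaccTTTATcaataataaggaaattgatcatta

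The octamer was present once in each of the Cdx windows, and in 1.60% of the 32851 upstream windows of 250 bases in the table. The TCF/LEF core was found once upstream of Cdx4 and not in the window of Cdx2, and 48.6% of all windows held at least 1. The Hoxb8 window held 6 caudal cores, none overlapping another. At least 1 such core was in 37.3% of all windows, and 5 or more were in 0.919%. These motifs were chosen after the sequences had been seen, and a match is only a run of letters.

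Cdx2 was the only member found in quantity. Its level was 4.64 CPM in FGFRi (95% interval 4.05 to 5.29), 109 CPM without FGF2 and, in order of dose, 188, 218 and 185 CPM with 0.75, 3 and 12 ng/ml. The library treated with FGFRi was therefore far below the others, and the highest level was at 3 ng/ml rather than at the highest dose. Ranked by UMIs among all features, Cdx2 stood at place 9907 in FGFRi and at places 1348, 722, 608 and 751 from 0 to 12 ng/ml.

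A gene was called higher or lower between 2 libraries when it had at least 10 CPM in either one and a ratio of at least 2. Between FGFRi and 0 ng/ml, 1 of the 3 Cdx genes was called higher, as were 2.62% of all genes with at least 10 CPM. That gene was Cdx2, with a log2 ratio of 4.55 (interval 4.36 to 4.75). Cdx2 reached 10 CPM only at 0 ng/ml, so its passing is no separate support. Cdx1 and Cdx4 were below 10 CPM in both libraries and could not be called. The steps within the FGF2 series stayed below the limit. From 0 to 0.75 ng/ml the Cdx2 log2 ratio was 0.79 (0.75 to 0.83), against 0.308% of genes called higher. It was 0.21 (0.18 to 0.25) from 0.75 to 3 ng/ml, with 0.336% of genes called higher and 0.523% lower, and -0.24 (-0.28 to -0.21) from 3 to 12 ng/ml, with 0.0631% called higher and 0.0252% lower. These comparisons share libraries, so they are not separate pieces of evidence.

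Cdx1 (ENSMUSG00000024619), on chromosome 18 from 61018862 to 61036199 on the minus strand, was scarce in every library. It had 0 UMIs in FGFRi and 2, 3, 13 and 6 UMIs along the FGF2 series. Its highest level, at 3 ng/ml, was 0.201 CPM (0.107 to 0.344). This was 5.47-fold that at 0.75 ng/ml, a log2 ratio of 2.45 with a counting interval of 0.59 to 4.90. That interval takes each UMI as a separate count. The share of cells with a Cdx1 UMI was 0.282% (0.104 to 0.614) at 3 ng/ml and 0.110% (0.0227 to 0.321) at 0.75 ng/ml. These intervals overlap, so a rise was not resolved by cells. From 3 to 12 ng/ml the ratio of levels was 0.421, with an interval of 0.131 to 1.19, so a drop was not resolved at this depth. The 0 UMIs in FGFRi allow a level of up to 0.0627 CPM when 3 counts are taken as the limit, which is above the 0.0352 CPM measured at 0 ng/ml. A difference between these libraries was not detectable at this depth.

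Cdx4 was scarcer still, with 0, 2, 3, 3 and 5 UMIs in FGFRi and from 0 to 12 ng/ml. Its level did not exceed 0.0706 CPM (0.0229 to 0.165), reached at 12 ng/ml. The ratio of 12 to 0 ng/ml was 2.01, with an interval of 0.329 to 21.1. Together the 5 libraries held 24 UMIs of Cdx1, 48969 of Cdx2 and 13 of Cdx4 in 10653 cells. The 8769 features without a UMI included none of the 3 genes.

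**Figure D1:**
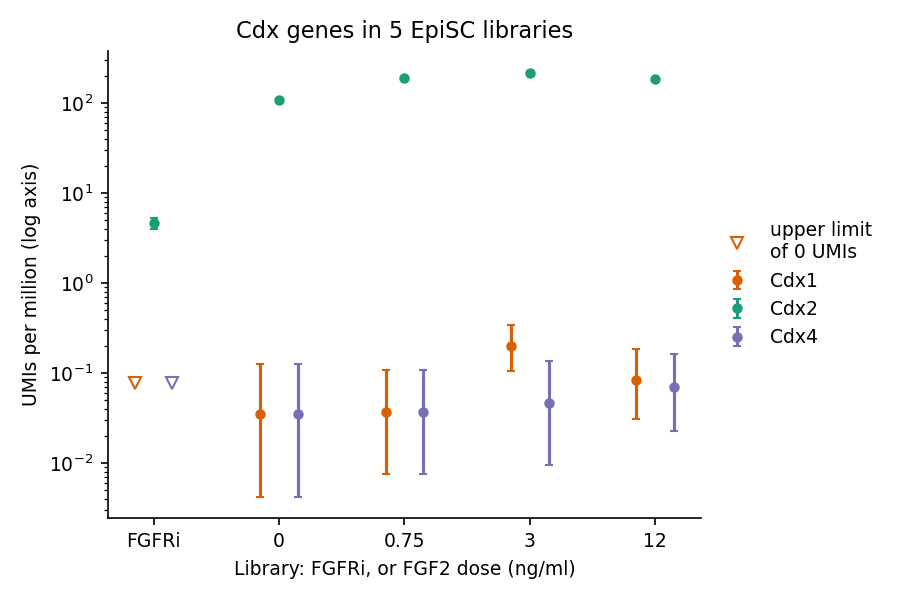
Level of Cdx1, Cdx2 and Cdx4 in CPM on a log axis in the FGFRi library and the 4 FGF2 libraries, with exact Poisson 95% intervals. Open triangles are the upper limits where no UMI was found. Cdx2 runs from 4.64 to 218 CPM, while Cdx1 and Cdx4 stay at or below 0.201 CPM.

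All cells with a Cdx1 or Cdx4 UMI also held Cdx2. Cdx1 was found in 15 cells, of which 15 had a Cdx2 UMI, 12 a UMI of T, the mesoderm factor Brachyury, 8 a UMI of the epithelial cadherin Cdh1 and 13 a UMI of Hoxb9, a trunk Hox gene. The 13 UMIs at 3 ng/ml came from 6 cells, with up to 4 in 1 cell, so that peak rests on few cells. Cdx4 was found in 13 cells with 1 UMI each, of which 13 had Cdx2, 11 T, 5 Cdh1 and 12 Hoxb9. No cell held both Cdx1 and Cdx4. These counts are of cells before any thinning, in which Cdx2 was already common, with a UMI in 89.3%, 94.8% and 91.3% of cells at 0.75, 3 and 12 ng/ml and in 68.9% at 0 ng/ml. From 0 to 12 ng/ml, T was in 24.6%, 47.4%, 74.5% and 82.2% of all cells. Cdh1 was in 65.0%, 55.4%, 42.0% and 36.2%, and Hoxb9 in 52.7%, 77.4%, 87.7% and 83.0%. With so few cells, an excess over any of these shares was not detectable at this depth.

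To compare shares of cells, each cell was thinned at random to 10000 UMIs, and 9 to 39 shallower cells per library were left out. A Cdx2 UMI was then found in 4.15% of FGFRi cells (3.24 to 5.22). Without FGF2 the share was 52.2% (49.8 to 54.6). Along the doses it was 76.3% (74.7 to 77.9), 82.3% (80.6 to 83.9) and 74.3% (72.5 to 76.1). The order of the libraries was that of the levels. The shares at 0.75 and 12 ng/ml were neighbours whose intervals overlapped. Thinned shares of Cdx1 and Cdx4 were at or below 0.111% in every library and were too low to be ordered.

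RNA released from other cells can place a UMI in a cell that does not make it. Cells rich in the smooth-muscle-type genes Acta2 and Tagln, with at least 10 UMIs of the pair in the thinned cell, were taken as those that should hold least Cdx RNA. Among them Cdx2 was found in 0.992% of cells in FGFRi, 27.1% (21.4 to 33.4) without FGF2 and 41.1% (29.7 to 53.2) with 0.75 ng/ml, and the 3 and 12 ng/ml libraries had only 9 and 21 such cells. Their median depth at 0 ng/ml was 37944 UMIs, against 29661.5 in the whole library. The shares in these cells lie below those in the whole libraries. Because the cells are deeper, the shares are not a ceiling for free RNA in shallower cells. How much of these shares was free RNA was not tested.

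Cdx2 was unevenly spread among the cells of each library. At 0 ng/ml the mean was 1.18 UMIs per thinned cell, and 47.8% of cells had none, where equal expression in every cell would leave 30.8% by Poisson counting. The variance over the mean was 2.01 in that library and 1.57, 1.41 and 1.51 in those with 0.75, 3 and 12 ng/ml. At 3 ng/ml 17.7% of cells had none, against 10.7% under equal expression. In FGFRi the mean was 0.0511 UMIs per cell with a variance over the mean of 1.37, and no thinned cell had more than 3 UMIs. For equally uneven cells this ratio grows with the mean, so alone it does not order the libraries by how unequal their cells were. Among the FGF2 libraries, that with 0 ng/ml had the highest ratio at a mean of 1.18 UMIs. That mean is below the 1.98, 2.24 and 1.82 UMIs at 0.75, 3 and 12 ng/ml. The FGFRi ratio of 1.37 came at a far lower mean, so FGFRi is not placed in this order.

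**Figure D2:**
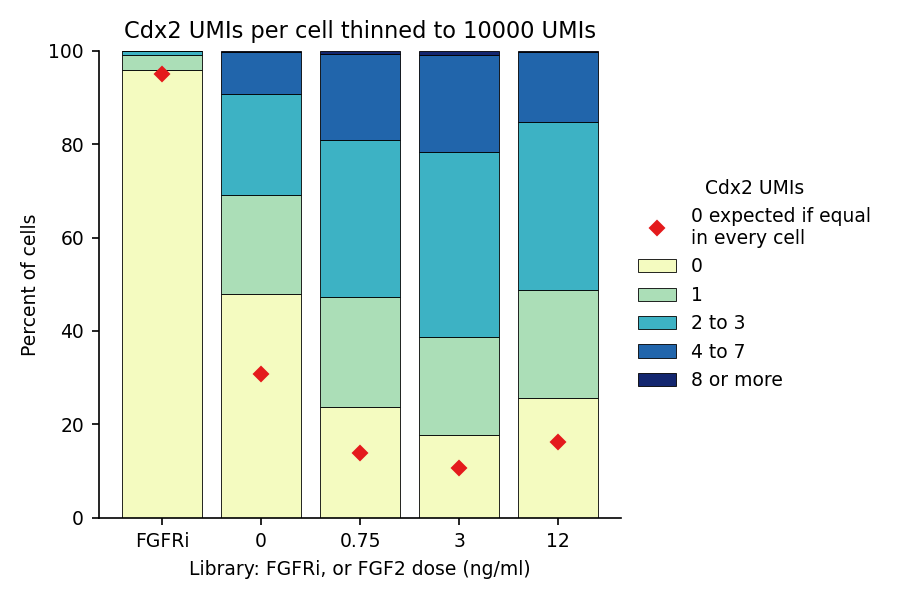
Share of cells, in percent, with 0, 1, 2 to 3, 4 to 7 or 8 or more Cdx2 UMIs after thinning to 10000 UMIs, for each library. Red diamonds mark the share without a UMI that a Poisson distribution with the same mean gives. Bars for 0 UMIs lie above the diamond in all 5 libraries, most at 0 ng/ml, where they reach 47.8% against 30.8%.

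Cdx2 was then set beside T and Cdh1. T, which marks the primitive streak and nascent mesoderm, was at 0.753, 26.7, 92.7, 205 and 208 CPM from FGFRi to 12 ng/ml. Cdh1, which is lost as epithelial cells become mesenchymal, was at 85.8, 93.6, 74.6, 45.3 and 39.7 CPM. Whereas Cdx2 was near its highest level from 0.75 ng/ml, T still passed the limit between 0.75 and 3 ng/ml with a log2 ratio of 1.14. The 9 pairs among the Cdx genes, T and Cdh1 were examined for detection in the same cell. Only Cdx2 with T and Cdx2 with Cdh1 had enough cells.

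At 0 ng/ml, T was found in 24.2% of cells with Cdx2 and in 5.35% of cells without it. The cells with both were 1.59 times as many as the product of the 2 shares gives. The same factor was 1.11 at 0.75 ng/ml, where T was in 38.0% of cells with Cdx2 and 22.0% of those without. At 3 ng/ml it was 1.01 and at 12 ng/ml 1.02, with T in 66.3% of cells with and 62.1% of cells without Cdx2. Among the FGF2 libraries, the factor was thus largest at 0 ng/ml. It cannot exceed the inverse of the larger share, so it is held nearer to 1 where Cdx2 is common. Cdx2 was in 52.2% of thinned cells at 0 ng/ml and in 82.3% at 3 ng/ml. The factor alone therefore cannot compare the strength of the link between doses. A cell without a Cdx2 UMI after thinning may still express Cdx2, and this was not corrected for. In FGFRi only 10 thinned cells had T, and 2 of them had Cdx2.

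Cdh1 followed the opposite course. It was found in 32.8% of cells with Cdx2 and 59.5% of cells without it at 0 ng/ml, and in 33.5% and 56.0% with 0.75 ng/ml. The 2 shares were 24.4% and 34.0% with 3 ng/ml and 22.3% and 22.6% with 12 ng/ml. Cells with both genes were 0.719 times the product at 0 ng/ml and 0.996 times at 12 ng/ml. In FGFRi, too, Cdh1 was in fewer cells with Cdx2, 21.7% (15 of 69 cells), than without, 41.6%. Cells with and without Cdx2 had similar depth, with medians of 29402 and 30361 UMIs at 0 ng/ml.

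The trend continued with the number of Cdx2 UMIs. At 0 ng/ml, T was found in 5.35% of cells without Cdx2, 16.8% with 1 UMI, 28.4% with 2 to 3 and 31.8% with 4 to 7. The mesodermal factor Hand1, known from extraembryonic and lateral mesoderm, was found in 45.7%, 30.7%, 22.6% and 19.2% of the same bins. At 12 ng/ml these shares were 15.4%, 14.3%, 15.2% and 19.9%, whose intervals overlapped. Tbx6, a factor of the presomitic mesoderm, was in 34.0% of cells without Cdx2 at 12 ng/ml, in 36.7% with 1 UMI and in 25.2% with 4 to 7.

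**Figure D3:**
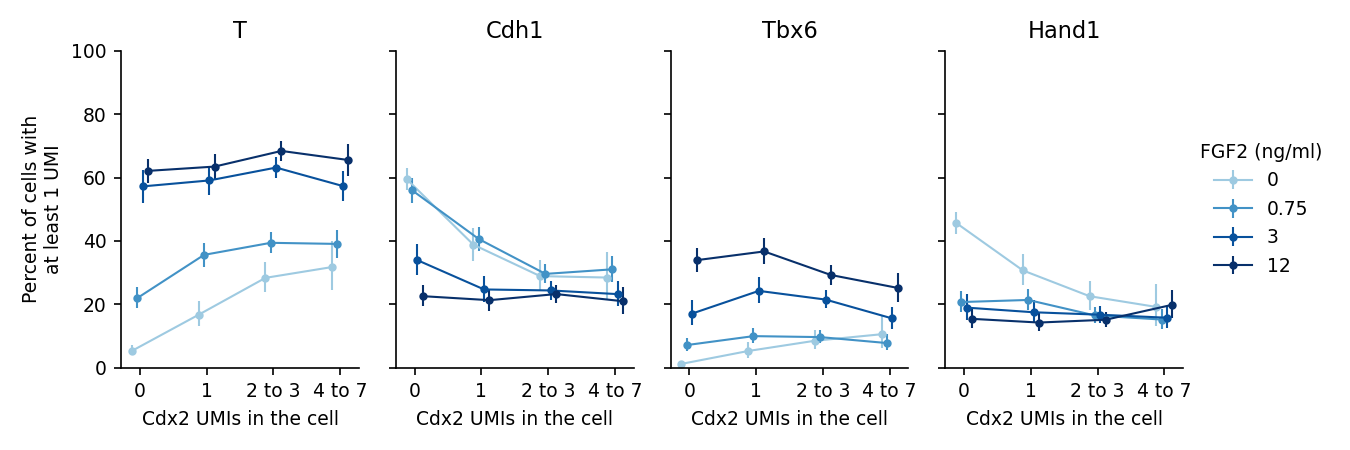
Percent of cells with at least 1 UMI of T, Cdh1, Tbx6 or Hand1 against the number of Cdx2 UMIs in the same thinned cell, for the 4 FGF2 libraries, with exact binomial 95% intervals. At 0 ng/ml, T runs from 5.35% to 31.8% and Hand1 from 45.7% to 19.2%, while the lines at 3 and 12 ng/ml are nearly flat for T and Hand1.

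Levels of Cdx2 in classes of cells showed where the FGF2 series differed. In cells with T and without Cdh1, Cdx2 was at 222 CPM (211 to 233) without FGF2 and at 224 CPM with 0.75 as well as with 3 ng/ml. These 3 values overlapped, and 0.75 over 0 ng/ml gave a ratio of 1.01 (0.955 to 1.07). The level at 12 ng/ml was lower, at 192 CPM (188 to 197). In cells with T alone, no difference in Cdx2 between 0 and 3 ng/ml was therefore larger than counting error.

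Cells with Cdh1 and without T differed far more. Their Cdx2 level was 62.7 CPM (59.7 to 65.9) without FGF2 and 143, 200 and 166 CPM with the 3 doses. The ratio of 0.75 to 0 ng/ml was 2.28 (2.15 to 2.42) in this class. Without FGF2, Cdx2 in cells with T alone was 3.54 times (3.30 to 3.79) that in cells with Cdh1 alone. With 0.75, 3 and 12 ng/ml it was 1.57, 1.12 and 1.16 times. Cells with neither gene were between these classes at 0 ng/ml, at 124 CPM, and reached 206, 222 and 176 CPM in the other libraries. Cells with both were at 148, 178, 211 and 188 CPM.

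Other gates followed the same division. Cells with T and the neural and epiblast factor Sox2, the pair used to recognise neuromesodermal progenitors, had 226, 225, 252 and 222 CPM of Cdx2 from 0 to 12 ng/ml, and the first and last of these overlapped. Cells with Tbx6 had 207, 194, 213 and 169 CPM. Cells with at least 2 UMIs of Hand1 had 54.8 CPM (50.7 to 59.2) without FGF2 and 155, 226 and 177 CPM with it, a ratio of 2.83 (2.57 to 3.11) for the first step. Cells rich in Acta2 and Tagln were the lowest of these gates, at 38.8, 69.9, 69.8 and 71.9 CPM. They too were higher after the first step, with a ratio of 1.80 (1.52 to 2.13). At 3 ng/ml, cells with Hand1 were thus at the level of cells with T without Cdh1, with a ratio of 0.990 (0.931 to 1.05). Those rich in Acta2 and Tagln were not, but they were only 9 cells with 23 Cdx2 UMIs (44.2 to 105 CPM).

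**Figure D4:**
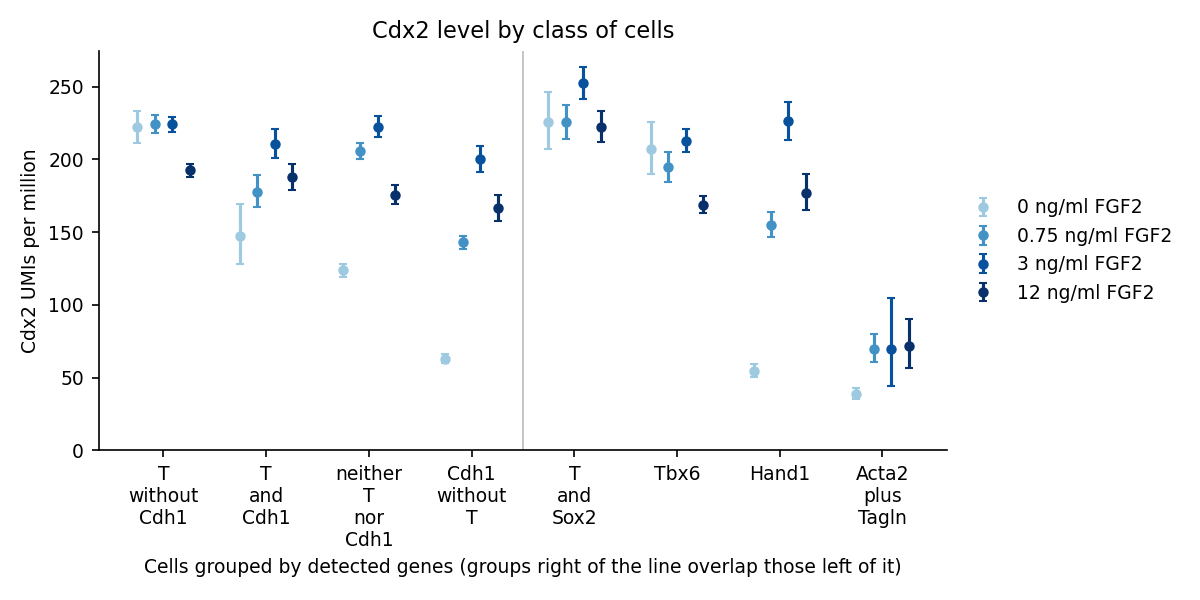
Cdx2 level in CPM in classes of cells defined by the genes detected after thinning, for 0, 0.75, 3 and 12 ng/ml FGF2, with exact Poisson 95% intervals. Classes left of the line divide each library, and those to the right overlap with them. Cells with T without Cdh1 are at 222, 224, 224 and 192 CPM, whereas those with Cdh1 without T start at 62.7 CPM and those with Hand1 at 54.8 CPM.

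The make-up of the libraries changed in parallel. Cells with T and without Cdh1 were 12.9%, 27.5%, 48.2% and 52.7% of the libraries in order of dose. Cells with Cdh1 and without T were 43.3%, 32.1%, 14.3% and 9.85%. When the class levels of 0 ng/ml were combined with the class shares of 0.75 ng/ml, the library level was 133 CPM, between the 109 and 188 CPM measured. The levels of 0.75 ng/ml with the shares of 0 ng/ml gave 179 CPM. For 0 and 12 ng/ml the corresponding values were 171 CPM from shares alone and 174 CPM from levels alone, against 185 CPM at 12 ng/ml. From 3 to 12 ng/ml the shares alone gave 219 CPM and the levels alone 184 CPM, so the lower level at 12 ng/ml was found within the classes. Class membership rests on detected UMIs, and a cell without a T or Cdh1 UMI may still express the gene.

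The genes with the most similar profile over the 5 libraries were sought by the root mean square difference of centred log2(CPM + 1), among 8761 genes with at least 10 CPM in any library. Nearest to Cdx2 was Hoxb8, a central trunk Hox gene, at a distance of 0.10 against a median of 1.99 over all genes. Its levels were 2.40, 56.8, 102, 129 and 118 CPM. It was followed by the antisense transcript Hoxaas3 (0.17), Hoxb9 (0.20), the zinc finger factor Sall3 (0.22) and Hoxb3 (0.36). Hoxaas3 lies within the HoxA cluster and was at 10.4, 193, 342, 461 and 458 CPM, and Hoxb9 at 9.07, 150, 241, 266 and 228 CPM. Sall3 had 1.78, 37.0, 65.3, 76.9 and 57.3 CPM and Hoxb3 had 1.78, 29.4, 46.5, 55.6 and 52.4 CPM. With the FGFRi library left out, 0 of these 5 genes were among the 5 nearest, so this order rests on that library. Cdx1 and Cdx4, with too few UMIs for a profile, were at 1.94 and 1.97 from Cdx2.

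A comparison within libraries does not depend on FGFRi. Levels of all genes were compared between cells with and without a Cdx2 UMI in the thinned cell, in each of the 4 FGF2 libraries. Thinning places some cells that hold Cdx2 among those without it. The shares with Cdx2 were 52.2%, 76.3%, 82.3% and 74.3% after thinning and 68.9%, 89.3%, 94.8% and 91.3% before it. How far this changes the ratios below from dose to dose was not tested. Genes were named by their lowest ratio over the 4 libraries, among those with at least 20 CPM in cells with Cdx2. This minimum favours genes that are high beside Cdx2, so the order is a description. First was Epha5, an ephrin receptor gene. Its level in cells with Cdx2 was 23.0, 29.2, 31.3 and 20.2 CPM from 0 to 12 ng/ml, and 2.59, 7.30, 9.95 and 7.54 CPM in cells without. The ratio was 8.88 (6.96 to 11.5) without FGF2 and 2.67 (2.24 to 3.21) at 12 ng/ml. The next 4 genes were all Hox genes. The lowest ratio was 2.08 for Hoxa10 and for Hoxa7, 1.90 for Hoxa9 and 1.87 for Hoxc6.

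Hox genes of the trunk, paralogue groups 5 to 9, were higher beside Cdx2. Some reached 10 CPM only in cells with Cdx2 and so had to differ, and the counts are therefore given for genes with at least 10 CPM on both sides. Of 15 listed genes these were 9, 10, 12 and 12 in order of dose, and 9, 8, 9 and 9 of them were at least 1.5-fold higher in cells with Cdx2. The share of all genes at least 1.5-fold higher, among those with 10 CPM on either side, was 4.04%, 2.08%, 1.01% and 1.04%. All shares of genes higher or lower beside Cdx2 given below have this basis, which is wider than that of the list counts. Hoxb8 gave 5.42, 2.40, 1.73 and 1.61, and Hoxa7 gave 5.37, 2.46, 2.14 and 2.08. Over the trunk genes with 10 CPM on either side the median ratio was 3.88, 2.12, 1.77 and 1.74. Of the 12 anterior Hox genes, groups 1 to 4, those with 10 CPM on both sides were 4, 7, 8 and 9, and 4, 6, 5 and 2 of them were at least 1.5-fold higher. Another 5, 3, 2 and 1 anterior genes passed only in cells with Cdx2 and so had to be higher there. Hoxb3 went from 5.88 at 0 ng/ml to 1.26 at 12 ng/ml. Of the 12 posterior genes, groups 10 to 13, at most 1 had 10 CPM on both sides in any library. Hoxc10, which passed only in cells with Cdx2, had 3.72, 2.14, 2.54 and 2.58.

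**Figure D5:**
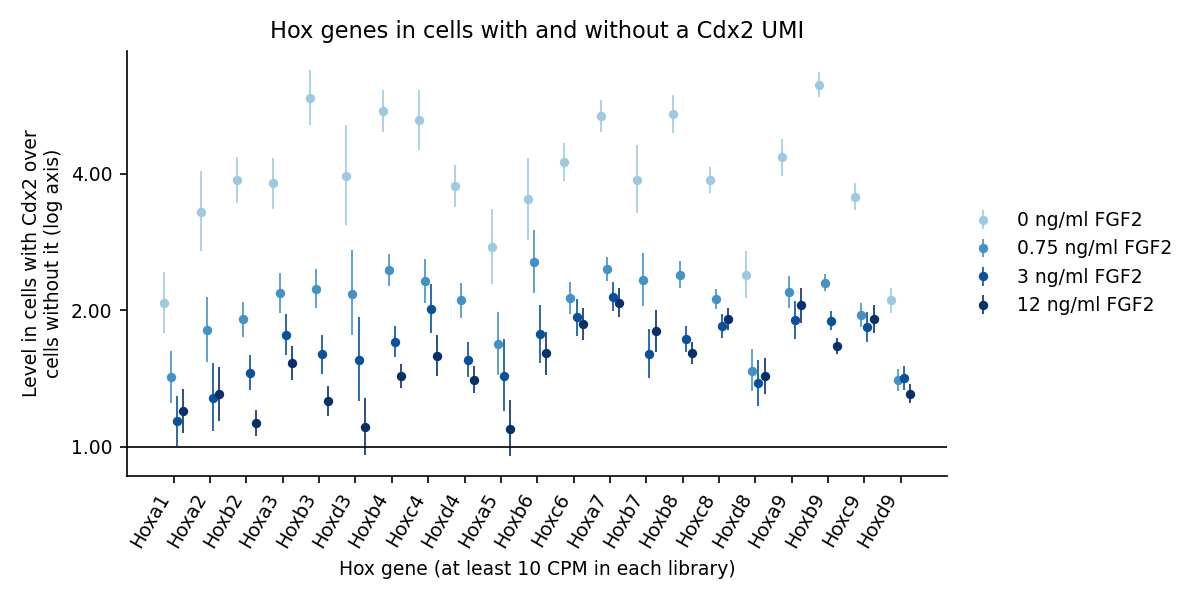
Level of each Hox gene of groups 1 to 9 in cells with a Cdx2 UMI over that in cells without one, on a log axis, for the 4 FGF2 libraries, with exact 95% intervals. Genes with at least 10 CPM in cells with or in cells without Cdx2, in each library, are shown. Some passed only in cells with Cdx2, 3 of the trunk genes at 0 ng/ml, and so had to lie above 1. All points lie above 1, with trunk medians of 3.88 without FGF2 and 1.74 at 12 ng/ml.

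Trunk Hox genes were also compared inside the classes, over genes with 10 CPM on either side, which lets in some through the cells with Cdx2 alone. Among cells with Cdh1 and without T, the trunk median for cells with over cells without Cdx2 was 4.85, 3.17, 2.44 and 3.34 from 0 to 12 ng/ml, with all measured genes above 1 in this class. Among cells with T and without Cdh1 it was 1.21, 1.39 and 1.43 from 0.75 to 12 ng/ml, and there were fewer than 50 such cells without Cdx2 at 0 ng/ml. In cells with neither gene it was 2.71, 1.70, 1.62 and 1.79. In each library the highest of the class medians measured was that of cells with Cdh1 and without T, with 2.11 and 2.76 in cells with both genes at 3 and 12 ng/ml.

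Lists of genes from neighbouring processes were described in the same way. Of 11 genes of the caudal epiblast and neuromesodermal progenitors, 5 had 10 CPM on both sides at 0 ng/ml and 10 in each other library. Those at least 1.5-fold higher beside Cdx2 were 5, 9, 1 and 4 in order of dose, beside the shares of all genes given for the Hox genes, and none was lower by as much. The Wnt ligand gene Wnt3a, a known upstream input of Cdx genes, was 21.8-fold higher (7.15 to 109) beside Cdx2 at 0 ng/ml, though at only 1.23 CPM in that library, and 2.31-, 1.40- and 1.61-fold higher in the others. Fgf17 gave 8.02, 2.23, 1.48 and 1.64, and Fgf8 gave 4.92, 2.11, 1.12 and 1.30. At 0 ng/ml 5 of the listed genes passed 10 CPM only in cells with Cdx2 and so had to be higher there. The retinoic-acid-degrading enzyme gene Cyp26a1 went from 6.08 at 0 ng/ml to 0.691 at 12 ng/ml.

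Presomitic mesoderm genes were higher beside Cdx2 mainly at the lower doses. Of 10 listed genes 2, 4, 6 and 6 had 10 CPM on both sides, and 2, 3, 1 and 0 of them were at least 1.5-fold higher. The shares of all genes at least 1.5-fold higher were 4.04%, 2.08%, 1.01% and 1.04%. Tbx6 went from 7.89 to 0.880 and Dll1, a Notch ligand gene, from 4.01 to 0.982 between 0 and 12 ng/ml. At 0 ng/ml 4 of the listed genes passed 10 CPM only in cells with Cdx2 and so had to be higher there. Tbx6 and Dll1 were at 5.86 and 8.82 CPM in that library. Hes7, a segmentation clock gene, stayed above 1, at 8.15, 2.47, 1.63 and 1.31. Wnt inputs and targets went both ways. At 0 ng/ml 10 of 14 had 10 CPM on both sides, of which 4 were at least 1.5-fold higher and 2 lower, against 4.04% and 9.37% of all genes. The 2 lower genes were Wnt3, a ligand of the primitive streak, and the Wnt inhibitor gene Dkk1, with ratios of 0.420 and 0.421. At 12 ng/ml 0 of 12 were higher and 1, Wnt3, was lower, against 1.04% and 2.81% of all genes. Of the FGF inputs and targets with 10 CPM on both sides, 1 of 2, 3 of 6, 0 of 8 and 1 of 8 were at least 1.5-fold higher. These counts stand against the same shares of all genes as the presomitic counts.

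Few markers of trophoblast and extraembryonic ectoderm, the other early site of Cdx2, could be measured. Those that could were mostly lower beside it, with 1 exception. Of 13 listed genes 4, 4, 3 and 3 had 10 CPM on both sides, and 3, 3, 2 and 2 of them were at least 1.5-fold lower in cells with Cdx2, against 9.37%, 6.25%, 4.70% and 2.81% of all genes. The exception was Tfap2c, a factor of trophoblast and of other epithelia and germ cells, with 0.846, 1.17, 1.31 and 1.59 (1.39 to 1.83 at 12 ng/ml), so that it was at least 1.5-fold higher in the last library. At 3 and 12 ng/ml the 3 genes were Tfap2c and the keratins Krt8 and Krt18. The 2 lower ones there were thus keratins, which are found in many epithelia. Krt8 had 0.366 without FGF2 and 0.519 at 12 ng/ml. The defining factors Elf5 and Esrrb were near 0 in all libraries, at up to 0.217 and 0.334 CPM, and the list was summed to between 669 and 2371 CPM. Eomes, singled out after its values were seen, was also low, at 0.125 to 1.98 CPM. At 12 ng/ml it had 0.424 CPM in cells with Cdx2 and 6.27 CPM in cells without, a ratio of 0.0677 (0.0409 to 0.107), and at 3 ng/ml 0.0947 (0.0577 to 0.151). Which kind of cell held Eomes was not tested, so these ratios are not a measure of trophoblast.

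Of 10 genes of the extraembryonic mesoderm and allantois, 7 had 10 CPM on both sides at 0 ng/ml and 8 in each other library. Of these 7, 5, 2 and 4 were at least 1.5-fold lower beside Cdx2, against 9.37%, 6.25%, 4.70% and 2.81% of all genes. Of the 8 with 10 CPM on either side, 1, 0, 1 and 4 had ratios above 1 in order of dose. Tagln gave 0.245, 0.217, 0.222 and 0.436. Blood and endothelial genes did not run one way. Of 8 listed genes 1, 0, 1 and 1 had 10 CPM on both sides in order of dose. Those that passed on 1 side only had to differ. Runx1, a blood factor, had ratios of 0.347, 0.212, 0.126 and 0.168, whereas Lmo2, which acts in blood and endothelial precursors, had 5.08, 1.77, 1.07 and 0.882. Gata2 reached 10 CPM at 0 ng/ml only, with 0.281. For hindgut and endoderm, 3 of 9 genes reached 10 CPM, the epithelial genes Cdh1, Epcam and Cldn6. Their median went from 0.714 at 0 ng/ml to 1.05 at 12 ng/ml. Of the retinoic acid genes with 10 CPM on both sides, 2 of 4, 3 of 5, 1 of 5 and 1 of 5 were at least 1.5-fold higher. The shares of all genes were 4.04%, 2.08%, 1.01% and 1.04%.

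The genes lowest beside Cdx2 in all 4 libraries were picked by the mirror image of the rule for companion genes, after values had been seen. They were Sfn, Cdkn2a, Dusp9, S100a6 and Lmna. The mirrored minimum, set in cells without Cdx2, favours genes that are high there, so this order too is a description. The cell cycle inhibitor gene Cdkn2a had ratios of 0.292, 0.135, 0.0608 and 0.177. Its level at 3 ng/ml was 1.84 CPM in cells with Cdx2 and 30.3 CPM in cells without. The epithelial gene Sfn gave 0.236, 0.122, 0.106 and 0.214.

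The same lists were then counted between libraries. From FGFRi to 0 ng/ml, 11 of the 15 trunk Hox genes were called higher, against 2.62% of all genes with 10 CPM in either library, and the other 4 were below 10 CPM in both. Of these 11 genes 9 reached 10 CPM only at 0 ng/ml, so their passing is no separate support. Those at 10 CPM in both were Hoxc9, which rose from 11.6 to 86.8 CPM, and Hoxd9, from 12.6 to 77.2 CPM. Called higher were also 6 of 12 anterior Hox genes, 8 of 11 caudal epiblast genes, 5 of 9 FGF inputs and targets and 4 of 14 Wnt inputs and targets. With 10 CPM in both libraries there were 0 of the 6, 2 of the 8, 0 of the 5 and 2 of the 4. Fgf17 was at 0.209 and 14.3 CPM, and the Wnt-responsive factor gene Sp8 at 2.97 and 25.8 CPM. The Wnt list also had 1 gene called lower, Wnt3. Of the 10 extraembryonic mesoderm genes 4 were called lower, all with 10 CPM in both libraries, against 5.38% of all genes, with Acta2 going from 1008 to 141 CPM.

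From 0 to 12 ng/ml Cdx2 itself had a log2 ratio of 0.76 and was not called. Of genes with 10 CPM in either library, 1.87% were called higher and 4.04% lower, a wider basis than that of the list counts that follow. Among genes with 10 CPM in both libraries, 3 of 3 presomitic mesoderm genes, 4 of 9 caudal epiblast genes, 3 of 6 FGF inputs and targets, 4 of 12 Wnt inputs and targets and 2 of 11 trunk Hox genes were called higher. The trunk genes Hoxa7 and Hoxc9 had log2 ratios of 0.01 and -0.08. Called lower were 3 of 3 trophoblast and extraembryonic ectoderm genes and 6 of 8 extraembryonic mesoderm genes with 10 CPM in both. With 1 library a condition these counts describe the libraries only.

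A few cells had a Cdx2 UMI in the presence of FGFRi. Of 1662 thinned cells 69 had a Cdx2 UMI and 14 had 2 or more. Its level was highest, of the classes examined, in the 9 cells with T and without Cdh1, at 31.5 CPM (13.6 to 62.0) from 8 UMIs, and was 21.4 CPM (6.93 to 49.8) in the 6 cells with T and Sox2, which overlap with them. Cdx2 was at 5.44 CPM (4.60 to 6.40) in cells without T and Cdh1, 3.19 CPM (2.47 to 4.07) in cells with Cdh1 and 6.38 CPM (4.71 to 8.46) in cells with Hand1. Cells rich in Acta2 and Tagln, 42.5% of this library, had 1.52 CPM (1.07 to 2.11). The barcodes removed by the filters, with a median of 1411 UMIs at 0 ng/ml, cannot be told from droplets with free RNA alone. In FGFRi they contained 4.27 CPM of Cdx2 (2.05 to 7.85). That interval holds the 4.64 CPM of all retained FGFRi cells. It also holds the 5.44, 3.19 and 6.38 CPM of the classes with neither gene, with Cdh1 and with Hand1. From 0 to 12 ng/ml the removed barcodes contained 69.6, 95.3, 135 and 92.1 CPM. At 0 ng/ml this was not below the 62.7 CPM of retained cells with Cdh1 and without T. Nor was it below the 54.8 CPM of those with Hand1 or the 38.8 CPM of those rich in Acta2 and Tagln. These CPM values give the make-up of the RNA in removed barcodes, not the amount that free RNA adds to a retained cell. Removed barcodes had medians of 1676.5 UMIs in FGFRi and 1411 at 0 ng/ml, against 24408 and 29661.5 in retained cells. How much Cdx2 in these classes was free RNA was not tested.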

How the data were processed

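Each of the 5 libraries was made with 10x Chromium 3′ chemistry and deposited by the authors as raw counts of UMIs per gene and barcode, per the file headers from Cell Ranger 5.0.1, with mm10 given in the submitters' processing notes. No doublet filter was described and none was applied. From these deposited counts, 10653 of 15375 barcodes were retained (at least 2500 genes and at most 10% mitochondrial UMIs). UMIs were summed over cells and divided by the library total. Intervals are exact Poisson (levels), exact conditional (ratios) and exact Clopper-Pearson (shares), at 95%. Shares, classes and detection in the same cell used cells thinned to 10000 UMIs (seed 1). Among the features, 40 gene symbols occur more than once. With 1 library per condition, genes were named by size and not by a test. Named were the Cdx genes, the 5 genes nearest to Cdx2, the 5 with the highest lowest ratio beside Cdx2 and the largest changes in 12 gene lists. Other list genes were added after their values were seen, as were the genes lower beside Cdx2. Cdx1 and Cdx4 were too scarce for either rule. The members and lists were chosen with earlier results of these data known. Python 3.11.15, NumPy 2.4.6, SciPy 1.17.1, pandas 2.3.3, Matplotlib 3.10.9 and, for scaling factors only, edgeR 4.0.16 in R 4.3.3 were used. The scripts were tested on simulated data.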

Additional observations from a re-analysis of the deposited data

How the results depend on the processing

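No log2 ratio of Cdx2 changed sign under the alternatives run, and scaling by TMM factors left the Cdx2 ratios within counting error. The log2 ratio of Cdx2 from 0 to 0.75 ng/ml was 0.85 with at most 5% mitochondrial UMIs, 0.69 with equal weight per cell and 0.74 without the 5% of cells with most UMIs; from 0 to 12 ng/ml it was 0.85, 0.66 and 0.70. Genes called higher numbered, with a minimum of 50 CPM, with no minimum but 3 UMIs, and with a ratio of 1.5, 61, 1611 and 802 from FGFRi to 0 ng/ml, 5, 1057 and 102 from 0 to 0.75, 4, 765 and 87 from 0.75 to 3, 0, 734 and 44 from 3 to 12, and 38, 1602 and 338 from 0 to 12 ng/ml. Genes called lower numbered 151, 2047 and 1043, then 41, 1122 and 336, then 9, 1018 and 175, then 0, 718 and 31, and 92, 1924 and 729. The share of cells with Cdx2 at 0 ng/ml minus that in FGFRi was 33.6 percentage points after thinning to 5000 UMIs, 30.0 with at least 2 UMIs and 61.2 without thinning, and at 12 minus 0 ng/ml it was 18.9 after thinning to 5000. Cdx2 and Cdh1 occurred together more often than the product of their shares in 1 library after thinning to 5000 UMIs and in 1 without the 5% of cells with most UMIs, against 0 in the report. With the 4 FGF2 libraries alone, 0 of the 5 genes nearest to Cdx2 were shared. The remaining alternatives were chosen after seeing the data. The trunk Hox median beside Cdx2 at 0, 0.75, 3 and 12 ng/ml was 2.52, 1.61, 1.37 and 1.36 after thinning to 5000 UMIs and 2.83, 1.70, 1.41 and 1.46 with at least 2 UMIs of each gene. It was 4.46 at 0 ng/ml in another random draw and 1.59 at 3 ng/ml without the 5% of cells with most UMIs. Cdx2 in cells with T alone over cells with Cdh1 alone was 3.29 at 0 ng/ml and 1.08 at 12 ng/ml without those cells, 1.65 at 0.75 and 1.09 at 12 ng/ml in another draw, and 1.28 at 3 and 1.23 at 12 ng/ml with at least 2 UMIs. Of the 5 genes highest beside Cdx2, 3 were shared after thinning to 5000 UMIs and 3 with at least 2 UMIs. The causes were not tested. No paired analysis was possible because each condition was 1 library. Depth limits Cdx1 and Cdx4 above all, with 24 and 13 UMIs in all.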
